A study of Rattus norvegicus with 18 samples.

Results

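Schwann cells wrap the axons of peripheral nerves, and in larger fibres they build the myelin sheath, a stack of membrane held together by a small set of dedicated proteins. A muscle is entered by a nerve that divides into intramuscular branches, so RNA from a whole muscle contains some Schwann cell RNA, most of it close to nerve branches and motor end plates. The 7 genes described here were Pmp22, Mbp, S100b, Prx, Cnp, Mag and Sox10, which between them code for structural proteins of compact and non-compact myelin, a calcium-binding marker and a transcription factor of this cell type. They were taken as a set of named genes, and every probe set of the array whose single gene symbol was one of them was used. That gave 11 probe sets of 31042 and 7 genes of 14217, with 2 probe sets for Pmp22, 3 for Mbp, 2 for Cnp and 1 for each of the others. Each gene's main probe set is the one whose mean over the 18 arrays was highest.

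The values came from Affymetrix arrays of the soleus, a slow-twitch postural muscle of the lower hindlimb, from 9 male rats. In 5 rats most of the kidney mass had been removed by 5/6 nephrectomy (SNX), a surgical model of chronic kidney disease, and 4 rats had a sham operation. In all rats, sham rats included, the right femoral artery was tied off and a piece of it removed 8 weeks after the kidney operation, and both soleus muscles were taken 24 hours after that. The 4 groups were therefore the right (ligated) muscle of SNX rats, the left muscle of SNX rats, the right (ligated) muscle of sham rats and the left muscle of sham rats, with 1 array per limb and rat and 18 arrays in all. Strain and age are not given in the sources used here. The source labels call every SNX array ischemic and every sham array nonischemic, against the design text, so groups are named here by operation and side. The left limb belonged to the same operated animal, and no group came from rats without a ligation.

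All values below are the deposited log2 signals, on which 1 unit is a 2-fold step, and a difference between groups is given in log2 units. Array medians lay between 3.23 and 3.38, and any 2 arrays correlated at 0.968 to 0.997 over all probe sets. The right muscles of SNX rat 49 and of sham rat 17 stood apart: they correlated with the rest at a mean of 0.980 and 0.978, against 0.987 or more for the other 16. On these 2 arrays the mean of 12 macrophage markers was 8.18 (SNX rat 49) and 8.80 (sham rat 17), and on the other 16 arrays it did not exceed 6.94. Differences of the 7 genes are given without these 2 arrays in part only, and those of other genes with all arrays only.

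Promoters of 4 of the genes are shown because the levels of these 4 moved together across the arrays, as described below. They are windows from 250 bases before to 50 bases after the annotated start, read in the direction of the gene, from RefSeq on rat assembly GRCr8, in lower case with motif matches in capitals. The motifs searched on both strands were ACAAAG and ACAATG (bound by SOX factors), GCGTGGG and GCGGGGG (bound by EGR factors) and GGAATG (bound by TEAD factors), of which none contains or equals another. Pmp22 lies at chr10:48294682-48294981 on the + strand, Mbp has windows at chr18:78130402-78130701 and chr18:78209995-78210294 on the + strand, S100b lies at chr20:12381032-12381331 on the - strand and Prx at chr1:91914171-91914470 on the + strand.
Pmp22: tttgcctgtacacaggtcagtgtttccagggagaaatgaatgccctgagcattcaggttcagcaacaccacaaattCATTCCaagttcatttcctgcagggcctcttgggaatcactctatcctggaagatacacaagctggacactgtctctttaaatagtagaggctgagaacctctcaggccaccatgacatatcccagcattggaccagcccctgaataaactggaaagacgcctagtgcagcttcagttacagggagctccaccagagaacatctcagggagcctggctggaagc
Mbp window 1: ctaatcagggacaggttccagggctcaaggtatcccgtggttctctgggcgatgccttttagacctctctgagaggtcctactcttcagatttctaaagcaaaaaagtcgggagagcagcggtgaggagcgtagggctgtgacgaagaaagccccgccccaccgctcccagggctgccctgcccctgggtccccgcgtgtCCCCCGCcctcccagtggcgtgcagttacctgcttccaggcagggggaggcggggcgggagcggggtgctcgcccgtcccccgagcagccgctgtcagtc
Mbp window 2: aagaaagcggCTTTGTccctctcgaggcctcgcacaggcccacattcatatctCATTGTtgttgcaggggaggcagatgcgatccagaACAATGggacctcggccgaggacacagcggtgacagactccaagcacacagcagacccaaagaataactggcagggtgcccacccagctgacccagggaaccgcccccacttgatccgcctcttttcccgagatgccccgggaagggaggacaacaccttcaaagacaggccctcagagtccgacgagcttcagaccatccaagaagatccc
S100b: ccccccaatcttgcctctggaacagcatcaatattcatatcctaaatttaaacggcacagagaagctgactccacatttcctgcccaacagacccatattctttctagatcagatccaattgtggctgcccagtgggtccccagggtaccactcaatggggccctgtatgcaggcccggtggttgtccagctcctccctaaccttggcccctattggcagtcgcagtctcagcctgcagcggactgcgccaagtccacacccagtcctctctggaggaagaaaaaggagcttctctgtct
Prx: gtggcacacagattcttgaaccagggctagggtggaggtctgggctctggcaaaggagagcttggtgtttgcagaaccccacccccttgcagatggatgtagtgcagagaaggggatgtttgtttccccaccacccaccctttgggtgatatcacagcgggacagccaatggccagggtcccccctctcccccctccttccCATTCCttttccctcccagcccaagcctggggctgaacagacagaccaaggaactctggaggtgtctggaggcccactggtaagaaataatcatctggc
The TEAD motif stood, on the opposite strand, in the windows of Pmp22 and Prx. The EGR motif GCGGGGG stood on the opposite strand of the first Mbp window. The second Mbp window held ACAATG on each strand and ACAAAG on the opposite strand. The S100b window held none of the 5 motifs. Of all 33469 windows in the table, 18.8% held ACAAAG, 13.2% ACAATG, 4.33% GCGTGGG, 9.16% GCGGGGG and 14.2% GGAATG, so each motif is common. Over the 7 windows of the 6 genes with an entry, these motifs stood in 3, 1, 1, 1 and 2 windows in the same order. The windows of Mag and Cnp are not printed, and Sox10 had no window. A match marks these letters only and was not tied to any measured binding.

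Pmp22 codes for a tetraspan protein of compact myelin whose gene dose is altered in inherited neuropathies. In SNX rats 12, 18, 20, 37 and 49 its main probe set (1370247_a_at) read 12.14, 10.09, 11.29, 12.01 and 10.37 in the right muscle, against 9.54, 9.58, 9.89, 9.56 and 9.40 in the left muscle. In sham rats 11, 13, 15 and 17 it read 11.12, 12.75, 12.08 and 12.21 in the right muscle, against 12.36, 12.66, 10.44 and 10.23 in the left muscle. The 5 left muscles of SNX rats were the 5 lowest arrays of the series for Pmp22, closely grouped, and they overlapped neither the right muscles of the same rats nor the left muscles of sham rats. Sham rats were split: the left muscles of rats 11 and 13 were high and those of rats 15 and 17 low. Group means were 11.18 ± 0.93 in SNX right, 9.60 ± 0.18 in SNX left (SD, n = 5 each), 12.04 ± 0.68 in sham right and 11.42 ± 1.26 in sham left muscle (SD, n = 4 each). The second probe set (1370504_a_at) ran from 4.95 to 9.85 and followed the main one, with a Pearson r of 0.98 over 18 arrays and 0.96 after group means were removed.

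Mbp codes for myelin basic protein, which joins the cytoplasmic faces of the compact myelin membrane. In SNX rats 12, 18, 20, 37 and 49 its main probe set (1368810_a_at) read 9.67, 6.57, 9.32, 9.61 and 4.66 in the right muscle, against 5.30, 5.95, 5.70, 5.42 and 6.09 in the left muscle. In sham rats 11, 13, 15 and 17 it read 7.26, 9.92, 9.87 and 9.97 in the right muscle, against 10.47, 10.51, 6.85 and 5.28 in the left muscle. The arrays fell on both sides of a gap of 2.06 log2 units in which no array lay: 10 arrays read 7.26 or less and 8 arrays read 9.32 or more. The upper 8 arrays were 3 SNX right, 0 SNX left, 3 sham right and 2 sham left muscles, so no group but SNX left lay on 1 side. From its lowest to its highest array Mbp spanned 57.7-fold, and its SD within groups was larger than that of 99.9% of all probe sets. Group means were 7.96 ± 2.25 in SNX right, 5.69 ± 0.34 in SNX left (SD, n = 5 each), 9.26 ± 1.33 in sham right and 8.28 ± 2.64 in sham left muscle (SD, n = 4 each).

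S100b codes for a calcium-binding protein used as a general Schwann cell marker, which is also made by some other cells. In SNX rats 12, 18, 20, 37 and 49 it read 7.95, 5.62, 6.82, 7.67 and 5.84 in the right muscle, against 3.99, 4.69, 5.74, 5.02 and 5.74 in the left muscle. In sham rats 11, 13, 15 and 17 it read 6.02, 8.95, 8.57 and 7.94 in the right muscle, against 8.85, 8.79, 6.38 and 8.31 in the left muscle. All 5 SNX left muscles lay below all 4 sham left muscles, and SNX right muscles overlapped with both SNX left and sham right muscles. The left muscle of sham rat 17 was high for S100b although it was low for Pmp22 and Mbp. Group means were 6.78 ± 1.05 in SNX right, 5.04 ± 0.74 in SNX left (SD, n = 5 each), 7.87 ± 1.30 in sham right and 8.08 ± 1.16 in sham left muscle (SD, n = 4 each), and the range over all arrays was 31.2-fold.

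Prx codes for periaxin, a scaffold that ties the outer Schwann cell membrane to the basal lamina. In SNX rats 12, 18, 20, 37 and 49 it read 6.96, 5.71, 6.27, 6.62 and 5.31 in the right muscle, against 5.64, 5.49, 5.43, 5.48 and 5.52 in the left muscle. In sham rats 11, 13, 15 and 17 it read 5.95, 6.99, 6.11 and 6.04 in the right muscle, against 6.51, 6.95, 5.50 and 5.37 in the left muscle. The order of the rats was much that of Pmp22, over a narrower range, and all groups overlapped with one another except SNX left with sham right. Group means were 6.18 ± 0.67 in SNX right, 5.51 ± 0.08 in SNX left (SD, n = 5 each), 6.27 ± 0.48 in sham right and 6.08 ± 0.77 in sham left muscle (SD, n = 4 each).

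Cnp codes for a phosphodiesterase of the cytoplasm-filled channels of myelin that is present at lower levels in many cells. In SNX rats 12, 18, 20, 37 and 49 its main probe set (1387897_at) read 7.11, 6.94, 6.61, 7.37 and 7.34 in the right muscle, against 7.33, 6.75, 6.31, 6.53 and 6.49 in the left muscle. In sham rats 11, 13, 15 and 17 it read 7.90, 8.35, 7.07 and 7.67 in the right muscle, against 6.98, 8.28, 7.06 and 6.91 in the left muscle. Both muscles of sham rat 13 were the highest, and the 4 groups overlapped. The second Cnp probe set ran only from 2.35 to 2.96.

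Mag, an adhesion protein of the myelin surface that faces the axon, read 2.55 to 3.09 over all arrays. Sox10, the transcription factor that specifies and maintains Schwann cells, read 2.07 to 2.16. Both lay below the median of the array on all 18 arrays, as did the second Cnp probe set, and no order of levels is read from them. The main probe sets of the other 5 genes lay above the array median on all 18 arrays.

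**Figure D1:**
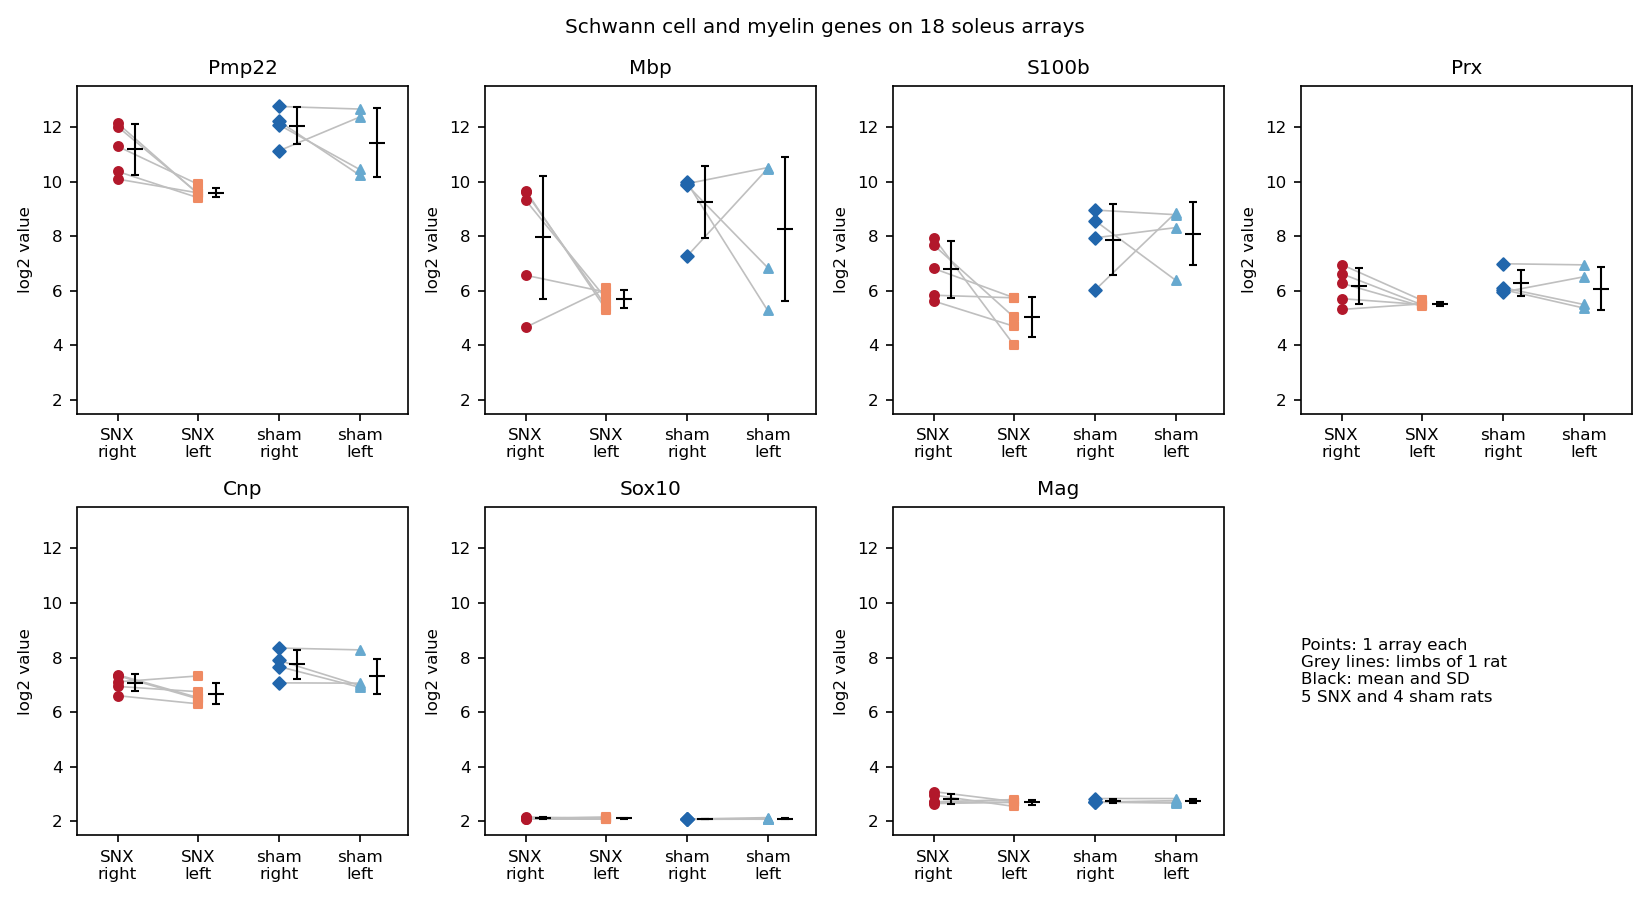
Log2 value of the main probe set of each of the 7 genes (y axis) in the 4 groups (x axis), 1 point per array, with grey lines joining the limbs of 1 rat and black bars for the mean and SD (5 SNX and 4 sham rats). The SNX left points of Pmp22, Mbp and Prx lie close together (SD 0.18, 0.34 and 0.08), the other groups are spread, and Mag and Sox10 stay under 3.1.

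The first comparison set the ligated against the unligated limb. In SNX rats Pmp22 differed by 1.58 (SE 0.51), with a 95% interval of 0.50 to 2.67, and was higher on the right in all 5 rats. Mbp differed by 2.28 (SE 1.12), S100b by 1.74 (SE 0.65), Prx by 0.66 (SE 0.34) and Cnp by 0.39 (SE 0.29), and Mag and Sox10 by 0.13 and 0.00. None of the 7 genes passed the test (limma over all probe sets, Benjamini-Hochberg adjusted p of 0.426 for Pmp22 and 0.658 for Mbp). With the rat as a random block these p-values were 0.158 and 0.380, and again 0 of 7 passed. Over all probe sets 0.0451% passed, or 0.319% with the block, so few features of any kind passed at this size. The differences of all 7 genes were above 0, with a median of 0.66, against -0.01 over all probe sets. That count includes the dim Mag and Sox10, and with arrays centred on medians Sox10 was at -0.015. The right and left muscles of SNX rats did not overlap for 1 of the 7 genes, Pmp22, beside 1.38% of all probe sets that were higher and 0.577% that were lower without overlap.

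The right minus left difference varied widely from rat to rat. For Pmp22 it was 2.60, 0.51, 1.40, 2.45 and 0.97 in SNX rats 12, 18, 20, 37 and 49, against -1.24, 0.10, 1.63 and 1.98 in sham rats 11, 13, 15 and 17. For Mbp it was 4.37, 0.62, 3.62, 4.19 and -1.43 in the same SNX rats, against -3.21, -0.59, 3.03 and 4.69 in the sham rats. For S100b it was 3.96, 0.93, 1.08, 2.66 and 0.10 in SNX rats, against -2.83, 0.17, 2.18 and -0.37 in sham rats. SNX rats 12 and 37 had large positive differences for all 3 genes, and sham rat 11 had large negative ones. In SNX rats Pmp22 and S100b were higher on the right in 5 of 5, which also held for 6.13% of all probe sets. In sham rats Pmp22 was higher on the right in 3 of 4 and S100b in 2 of 4, and Cnp alone in 4 of 4, as were 8.91% of all probe sets. Without the right muscle of SNX rat 49, the mean differences in SNX rats were 1.79 for Pmp22 and 3.10 for Mbp, with sham rat 17 left out of the shared fit as well.

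In sham rats the limbs also differed in no gene past the threshold. Pmp22 differed by 0.62 (SE 0.57, adjusted p = 0.610), Mbp by 0.98 (SE 1.25, adjusted p = 0.702), S100b by -0.21 (SE 0.72, adjusted p = 0.888) and Cnp by 0.44 (adjusted p = 0.554) in limma's fit. Of the 7 genes 4 were above 0 and 3 below, which were S100b and the dim Mag and Sox10. The test was passed by 0 of the 7 and by 0.148% of all probe sets, or 1.8% with the block. The limbs of sham rats overlapped for all 7 genes, while 3.24% of all probe sets were higher and 5.4% lower on the right without overlap. Single rats set these signs, since Mbp differed by -0.26 without sham rat 17 and S100b by 0.66 without sham rat 11. Over all 9 rats Pmp22 differed by 1.10 (SE 0.38), with an adjusted p of 0.130 in limma and 0.0539 with the rat as a block. No member passed over the 9 rats, where 2.55% of all probe sets passed, or 9.05% with the block. In the blocked fit without sham rat 11 Pmp22 passed, with a difference of 1.41 and an adjusted p of 0.0361 by limma. It passed in 1 of 27 alternatives, over which its adjusted p by limma reached 0.350.

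The second comparison set SNX against sham rats. In the left, unligated muscle S100b differed by -3.05 (SE 0.69), 8.27-fold lower, with a 95% interval of -4.51 to -1.59. Pmp22 differed by -1.83 (SE 0.54, interval -2.98 to -0.68), Mbp by -2.59 (SE 1.19), Cnp by -0.63 (SE 0.31) and Prx by -0.57 (SE 0.36). Without sham rat 13 Cnp differed by -0.30 and Prx by -0.28. None passed over all probe sets: the adjusted p by limma was 0.352 for S100b, 0.482 for Pmp22 and 0.779 for Mbp, although the raw p for S100b was 0.000475. Here 2 of 31042 probe sets passed, which is 0.00644%, both without and with the block. Of the 7 genes 6 were below 0, with a median of -0.63, against 0.01 over all probe sets. Among the 6 was the dim Mag, at -0.05. For Pmp22 and S100b all SNX left muscles lay below all sham left muscles, beside 1.47% of all probe sets lower and 1.04% higher without overlap. Fewer Schwann cells in the piece of muscle taken and less RNA of these genes per Schwann cell cannot be told apart in such bulk samples.

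Fibroblast and macrophage markers also had lower means in the left muscle of SNX rats. The mean of 10 fibroblast markers was 10.45 in SNX left and 11.26 in sham left muscle, and 0 of the 10 genes were above 0, with a median difference of -0.80. The mean of 12 macrophage markers was 4.91 to 5.52 in SNX left and 5.53 to 6.31 in sham left muscle, again with 0 of 12 genes above 0 and a median of -0.97. Of 7 endothelial markers 0 were above 0 (median -0.28), and of 9 perineurium and endoneurial fibroblast genes 1 was (median -0.36). Slow fibre genes went the other way, with 8 of 8 above 0 and a median of 0.20. Of 9 fast fibre genes 6 were above 0, with a median of 0.03. Of 10 adipocyte markers 4 were above 0, with a median of -0.16, and Adipoq among them differed by -2.59 (SE 0.95, adjusted p = 0.675 by limma). The neuron and axon list, of 15 genes, ran from 3.55 to 4.21 in SNX left and from 3.62 to 3.77 in sham left muscle, and 7 of its genes lay below the array median on all arrays. The part of these other tissues in the values of the 7 genes was not tested.

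In the right, ligated muscle no difference of SNX from sham rats passed. Mbp differed by -1.29 (SE 1.19, adjusted p = 0.571), S100b by -1.09 (SE 0.69, adjusted p = 0.499), Pmp22 by -0.86 (SE 0.54, adjusted p = 0.499) and Cnp by -0.67 (SE 0.31, adjusted p = 0.498) in limma. Prx differed by -0.10 (SE 0.36). Of the 7 genes 5 were below 0 and 0 passed, as did 0% of all probe sets with limma, without or with the block, while 2872 had an unadjusted p under 0.05. The 2 genes above 0 were the dim Mag and Sox10. The right muscles of SNX and sham rats overlapped for all 7 genes, and 0.483% of all probe sets were lower and 7.77% higher in SNX rats without overlap. Without the 2 arrays that stood apart Mbp differed by -0.23, or 0.16 with the block, and Pmp22 by -0.60. When 1 rat was left out, Mbp ran from -1.96 to -0.46. Its value rested mostly on SNX rat 49, the lowest array for Mbp (4.66), since sham rat 17 (9.97) lay close to sham rats 13 and 15 (9.92 and 9.87). Averaged over both limbs S100b differed by -2.07 (SE 0.49, adjusted p = 0.128 by limma, 0.401 with the block), Pmp22 by -1.34 (SE 0.38) and Mbp by -1.94 (SE 0.84), and 0 of 7 passed, beside 0.0193% of all probe sets, or 0% with the block. S100b passed only where dim probe sets were left out before the adjustment, with an adjusted p of 0.0482. The right minus left differences of SNX rats minus those of sham rats were 1.96 (SE 0.97) for S100b, 1.30 (SE 1.68) for Mbp and 0.97 (SE 0.76) for Pmp22, none past the threshold (adjusted p of 0.9999 each), where 0% of all probe sets passed and 437 had an unadjusted p under 0.05. A response that differs between SNX and sham rats was not shown, and a difference of several log2 units for Mbp lies within its interval of -2.28 to 4.87. Without the 2 arrays that stood apart these differences of changes were 2.22 for S100b, 2.36 for Mbp and 1.22 for Pmp22. Averaged over both limbs Mbp was then at -1.41.

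**Figure D2:**
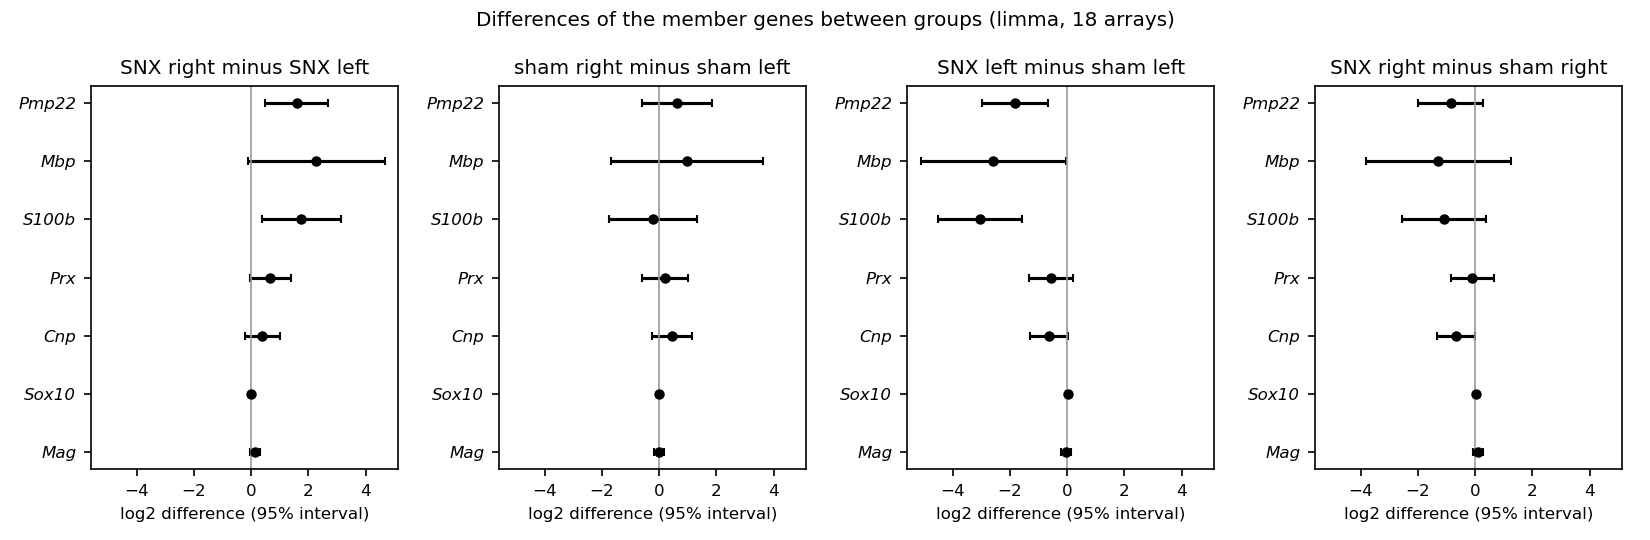
Log2 difference of each gene (points) with its 95% interval (bars) in 4 comparisons, from limma on 18 arrays. Intervals of Pmp22 and S100b leave out 0 for SNX right minus SNX left and for SNX left minus sham left, as do those of Mbp for SNX left minus sham left and of Cnp for SNX right minus sham right, and no gene passed after adjustment over all probe sets.

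Across single arrays the genes with signal moved together. Over 18 arrays Pmp22 correlated with Mbp at 0.94, with Prx at 0.89 and with S100b at 0.88. After the mean of each group was removed these values were 0.91, 0.92 and 0.77, so the relation was also present between rats of the same group. Mbp and Prx correlated at 0.87 within groups and Mbp and S100b at 0.69. Cnp stood apart, with 0.34 to Pmp22, 0.13 to Mbp and -0.04 to S100b within groups. All these points share the same 18 arrays and their normalization, and the limbs of 1 rat are not independent, so the correlations describe these arrays only.

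**Figure D3:**
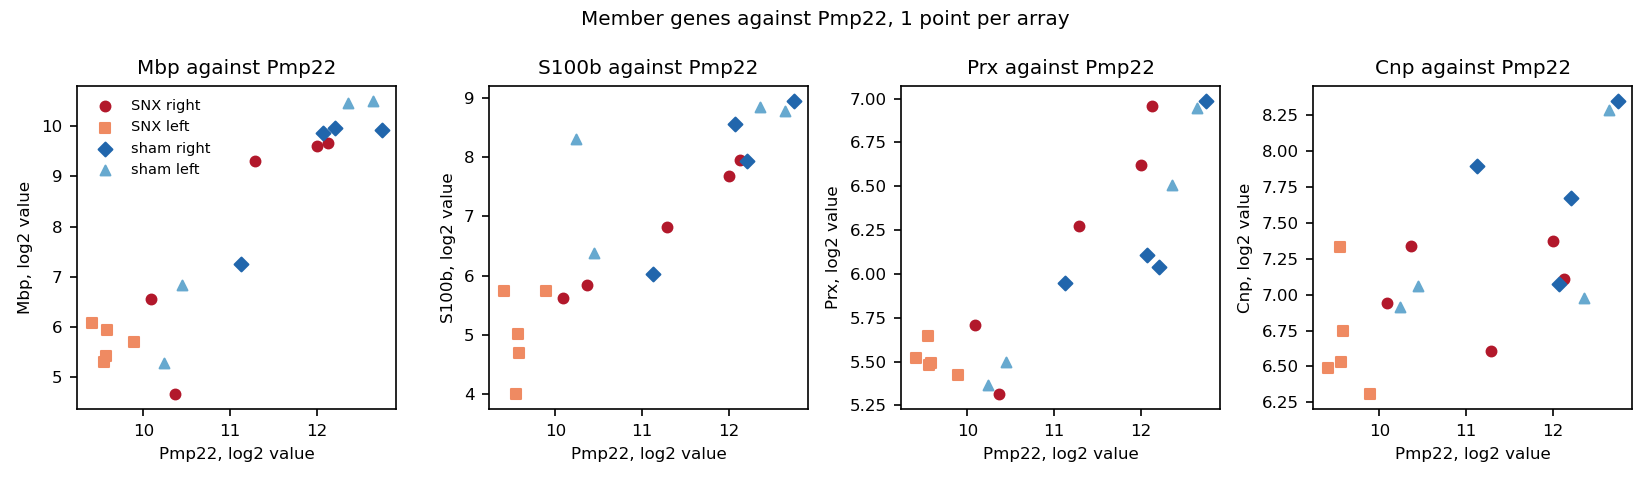
Log2 values of Mbp, S100b, Prx and Cnp (y axes) against Pmp22 (x axis), 1 point per array, coloured by group. Mbp, S100b and Prx climb with Pmp22 (r of 0.94, 0.88 and 0.89 over 18 arrays), and Cnp is more scattered (0.66).

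The mean of the 7 main probe sets, which sums the set up per array, was 6.98, 5.68, 6.44, 6.93 and 5.47 in the right muscle of SNX rats 12, 18, 20, 37 and 49, against 5.20, 5.34, 5.41, 5.26 and 5.44 in their left muscle. It was 6.15, 7.41, 6.93 and 6.94 in the right muscle of sham rats 11, 13, 15 and 17, against 7.15, 7.44, 5.85 and 5.84 in their left muscle. The 5 SNX left arrays were the 5 lowest of all 18. The mean was high in both limbs of sham rat 13 and low in both limbs of SNX rats 18 and 49, and the macrophage list did not follow it within groups (r of -0.21).

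The 3 Mbp probe sets differed among themselves. The probe set 1387341_a_at ran from 2.26 to 4.49 and followed the main Mbp probe set at 0.79 within and across groups. The probe set 1383479_at read 2.69, 2.85, 2.87, 2.91 and 4.75 in the right muscle of SNX rats, against 2.71, 2.78, 2.76, 2.87 and 2.45 in their left muscle. It read 3.12, 3.64, 2.93 and 5.10 in the right muscle of sham rats, against 2.89, 3.65, 2.73 and 2.88 in their left muscle. Its highest arrays were the right muscles of sham rat 17 and SNX rat 49, which were also the highest for macrophage markers, while the main Mbp probe set was high (9.97) on the array of sham rat 17 and lowest of all (4.66) on that of SNX rat 49. Within groups this probe set correlated at -0.17 with the main Mbp probe set and at 0.90 with the macrophage mean. However, 1383479_at and 1387341_a_at each lay below the array median on 14 arrays. Correlations without the right muscles of sham rat 17 and SNX rat 49 are not given, and how far the 0.90 rests on them was not tested. Over the other 10 probe sets the within-group correlation with the macrophage mean lay between -0.36 and 0.22. The Mbp locus also gives rise to Golli transcripts, which start upstream of the classic myelin transcripts, and which transcript each probe set reads was not analysed here.

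**Figure D4:**
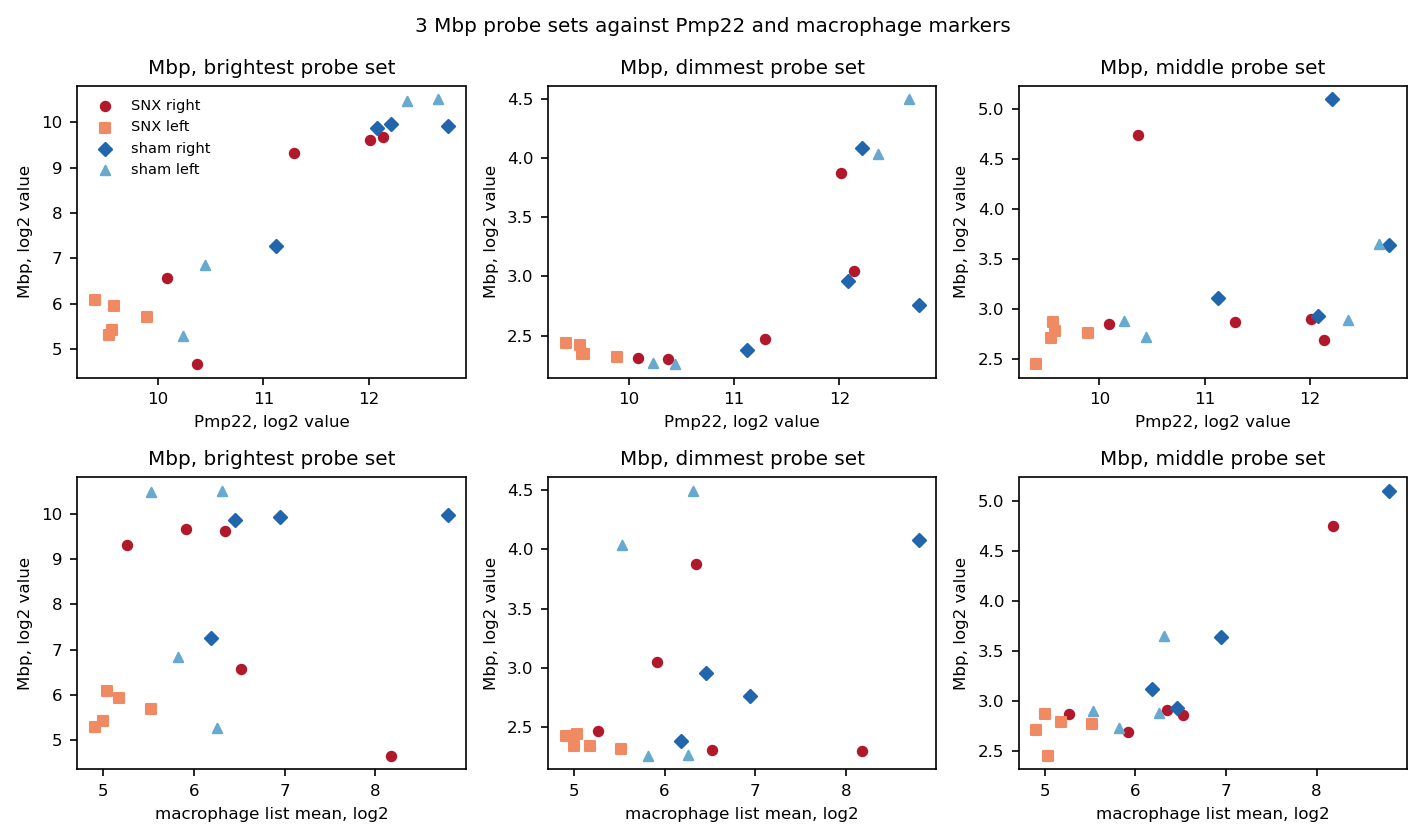
Log2 value of the 3 Mbp probe sets (columns) against Pmp22 (top row) and against the mean of 12 macrophage markers (bottom row), 1 point per array. The brightest and dimmest probe sets climb with Pmp22, and the middle one (1383479_at) has its 2 highest arrays, 5.10 and 4.75, where the macrophage mean is highest, 8.80 and 8.18.

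Other genes of peripheral myelin were read from a list of 24, of which 18 had a probe set. None passed in any comparison without the block, and over 9 rats Ndrg1 (0.84, adjusted p = 0.0316) and Cd9 (0.54, adjusted p = 0.0236) rose on the right with the block in limma, which is 2 of 18 beside 9.05% of all probe sets. They passed in 6 and 7 of 27 alternative fits. Ndrg1 is a cytoplasmic protein needed to maintain myelin and Cd9 a membrane tetraspanin, and both are made by many cells. The mean of these 18 genes followed the mean of the 7 at 0.97 within groups over 18 arrays. Mal, a raft protein of myelin membrane, followed it at 0.94, Pllp at 0.89, and Pmp2, a fatty acid binding protein of myelin, and Fa2h, an enzyme of myelin lipid synthesis, at 0.84 each (these 4 were chosen after their values were seen). Pllp and Fa2h were dim, with medians of 2.47 and 2.83 over arrays, and 6 of the 18 genes lay below the array median on all arrays. Gjb1, Ugt8, Sirt2, Cadm4, Cntn2, Gal3st1 and Tjp1 did not follow the mean of the 7, with values from -0.21 to 0.15. Mal read 6.16, 3.59, 4.95, 5.54 and 4.07 in the right muscle of SNX rats, against 2.61, 3.54, 3.36, 3.56 and 2.95 in their left muscle. It read 4.28, 6.49, 5.81 and 6.52 in the right muscle of sham rats, against 6.18, 6.62, 3.31 and 3.51 in their left muscle. As for Pmp22, right muscles of SNX rats 12 and 37 and left muscles of sham rats 11 and 13 were high.

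Regulators of the Schwann cell programme were read from a list of 25, of which 22 had a probe set and 12 lay below the array median on all arrays. Over 9 rats 3 of the 22 rose on the right and 0 fell in limma without the block, beside 2.55% of all probe sets that passed in either direction. They were Egr2, the transcription factor that drives peripheral myelination and that is also an immediate early gene in other cells (2.15, SE 0.47, adjusted p = 0.0306), and its cofactors Nab2 (0.89, SE 0.15, adjusted p = 0.00753) and Nab1 (0.46, SE 0.11, adjusted p = 0.0414). Each was higher on the right in 9 of 9 rats, and the share of all probe sets for which this held is not given. It also held for Cd9 above and for Insig1, Klf5, Slc2a1, Runx1, Cd14, Kdr and Pecam1 below. Nab2 passed in 26 of 26 alternative fits, Egr2 in 20 of 27 and Nab1 in 16 of 27. Nab2 was dim, however, at 2.35 to 4.79 over all arrays. Its mean over 9 rats was 3.73 on the right and 2.87 on the left, the latter below the array medians. The list's median difference was -0.01, as was that over all genes. Within sham rats Nab2 rose by 1.25 (SE 0.22, adjusted p = 0.0415 by limma, 14 of 27 alternatives), beside 0.148% of all probe sets. With the block Egr2 also rose there by 2.65 (adjusted p = 0.0355, 5 of 28 alternatives), beside 1.8%. Within SNX rats Nab1 rose by 0.75 with the block (adjusted p = 0.0293, 8 of 28 alternatives), beside 0.319%. Egr2 differed there by 1.65 (SE 0.63, adjusted p = 0.524 by limma, 0.197 with the block). Its change was not shown to differ between SNX and sham rats (-0.998, SE 0.944, adjusted p = 0.9999 by limma). Such differences for Nab1 and Nab2 are not given. Erbb3, the receptor for axonal neuregulin, read 2.11 to 2.16 and Ngfr, a neurotrophin receptor of immature and repair Schwann cells, 2.33 to 2.44, both below the array median.

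Genes studied in Schwann cell repair after nerve injury were read from a list of 18, of which 15 had a probe set. None passed in the unblocked fit, and with the block Atf3, a stress-induced transcription factor (2.09, adjusted p = 0.0310), and Tnc, a matrix glycoprotein (1.28, adjusted p = 0.0157), rose on the right over 9 rats in limma, in 6 and 12 of 27 alternatives and beside 9.05% of all probe sets with the block. Jun, which controls the repair state of Schwann cells, differed by 0.25 over 9 rats (SE 0.19, adjusted p = 0.470 by limma) and Gap43, a growth-associated protein, by 0.58 (SE 0.51, adjusted p = 0.526 by limma). Of the cholesterol synthesis genes, 16 of 20 with a probe set, Insig1, a feedback regulator of sterol synthesis, rose on the right over 9 rats (0.85, SE 0.18, adjusted p = 0.0261 by limma, 21 of 27 alternatives), and Pmvk, a kinase of the pathway, fell by 0.27 with the block (adjusted p = 0.0394, 5 of 27). Of 9 perineurium and endoneurial fibroblast genes Klf5 rose over 9 rats (1.65, SE 0.29, adjusted p = 0.0107 by limma, 25 of 27 alternatives), and Slc2a1 with the block (1.53, adjusted p = 0.0268, 7 of 27). Of 13 genes known to respond in denervated muscle Runx1, a transcription factor, rose over 9 rats (2.40, SE 0.47, adjusted p = 0.0179 by limma, 23 of 27 alternatives), with the block also Gadd45a (1.35, adjusted p = 0.0149, 12 of 27), and Chrnb1, an acetylcholine receptor subunit, fell by 0.26 with the block (adjusted p = 0.0339, 3 of 27).

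Lists of cell types other than Schwann cells were read beside them. No neuron or axon gene passed (0 of 15), and Nefl, the light neurofilament, read 2.73 to 2.90. No gene of oligodendrocytes, the myelinating cells of the central nervous system, passed (0 of 10), and 9 of the 10 lay below the array median on all arrays, with a list mean of 2.34 to 2.46. Of 12 macrophage markers Cd14 rose over 9 rats (2.36, SE 0.51, adjusted p = 0.0290 by limma), and 8 rose with the block, beside 2.55% and 9.05% of all probe sets that passed in these fits. Cd14 ran from 2.01 to 2.65 when 1 rat was left out, and it passed in 22 of 27 alternatives. The 2 right muscles that stood apart had the highest macrophage means, and differences of these markers without them are not given. Of 7 endothelial genes Kdr (0.85, adjusted p = 0.0104) and Pecam1 (0.34, adjusted p = 0.0421) rose over 9 rats in limma, and with the block Cldn5 rose (0.65, adjusted p = 0.0269) and Tek fell by 0.58 (adjusted p = 0.0108). No fibroblast (10), adipocyte (10), slow fibre (8) or fast fibre gene (9) passed. Within groups the list means correlated with the mean of the 7 genes at 0.55 for perineurium, 0.39 for fast fibres, 0.37 for fibroblasts, 0.24 for neurons, 0.12 for endothelium, 0.05 for slow fibres and 0.00 for adipocytes, over 18 arrays.

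The genes whose pattern was most like that of the 7 were sought among 7772 genes with 1 symbol and a mean of at least 5. After group means were removed, the 8 with the highest Pearson r to the mean of the 7 over 18 arrays were Mt3 (0.906), Cntf (0.906), Scn7a (0.875), Maob (0.838), Sema5a (0.811), Secisbp2l (0.793), Scd2 (0.771) and Scrn1 (0.762), and the next gene stood at 0.749. Mt3 is a metal-binding metallothionein, Cntf a neurotrophic cytokine, Scn7a a sodium channel, Maob a monoamine oxidase, Sema5a a semaphorin and Scd2 a fatty acid desaturase. Of these, Scn7a and Cntf also stood in the lists above. By raw values the 8 were Cntf, Mt3, Maob, Scn7a, Sema5a, Igfbp6, Scd2 and Apod (0.905 to 0.843), of which 6 were shared. None of the 10 genes passed in any of the 7 comparisons, without or with the block.

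Mt3 read 6.12, 4.75, 5.54, 5.90 and 4.73 in the right muscle of SNX rats 12, 18, 20, 37 and 49, against 5.13, 4.68, 5.11, 5.37 and 4.89 in their left muscle. It read 5.42, 7.37, 6.00 and 5.87 in the right muscle of sham rats 11, 13, 15 and 17, against 6.57, 6.55, 5.12 and 4.89 in their left muscle. Cntf read 8.51, 6.79, 8.59, 8.34 and 6.83 in the right muscle of the SNX rats, against 7.25, 6.91, 7.28, 7.68 and 7.32 in their left muscle. For both genes right muscles of SNX rats 18 and 49 were the lowest of their group and lay within or below the range of the SNX left muscles. In sham rats Cntf read 7.40, 8.84, 8.32 and 8.48 on the right, against 8.88, 8.80, 7.34 and 7.71 on the left. Among the left muscles those of rats 11 and 13 were the higher ones. Mt3 and Cntf were chosen for following the mean of the 7 within groups, so a like order of arrays follows from that choice.

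**Figure D5:**
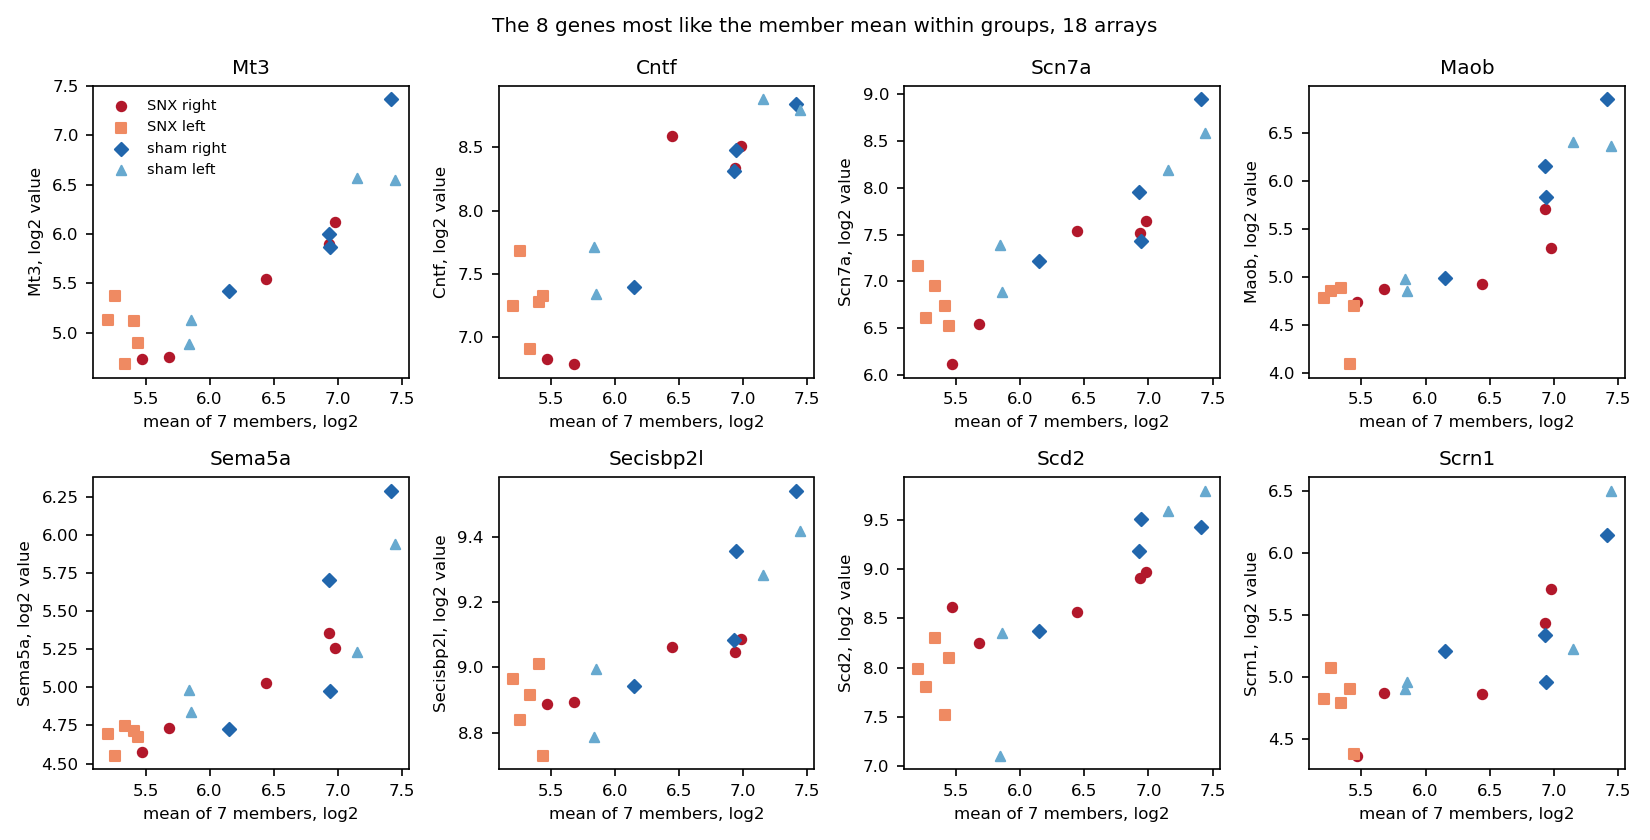
Log2 value of the 8 genes most like the mean of the 7 Schwann cell and myelin genes within groups (y axes) against that mean (x axis), 1 point per array, coloured by group. SNX left arrays lie at the low end of the x axis (5.20 to 5.44) in every panel, and correlations within groups run from 0.762 to 0.906.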

How the data were processed

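The authors deposited normalized log2 values of 31099 probe sets on 18 arrays made from 2 micrograms of total RNA each, per the labels' protocols. The submitters' processing notes list RMA, GCRMA and Partek. No source used here gives their roles or versions. RMA and GCRMA correct the background in different ways, which touches dim probe sets most. Arrays hold no read counts, so their number limits the precision.

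After removal of 57 control probe sets, 31042 were tested. Of these, 20826 list 1 gene in the platform annotation, 436 several and 9780 none. Old symbols were replaced by those of RefSeq (GRCr8) for the same Entrez gene, and 20758 probe sets matched.

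One mean per group was fitted to all 18 arrays with limma 3.58.1 in R 4.3.3 (lmFit and eBayes, 14 residual and 1.02 prior degrees of freedom). P-values are two-sided, with Benjamini-Hochberg adjustment over all probe sets and a threshold of 0.05. There were 7 comparisons: right against left in SNX rats, in sham rats and over 9 rats, SNX against sham in the left limb, in the right limb and averaged, and the right minus left change of SNX rats minus that of sham rats. The number in each title was read as the rat. Both limbs come from 1 animal, so a blocked fit (rat as a random effect by duplicateCorrelation, 0.297) stands beside the unblocked one. The limbs of 7 of 9 rats deviated from their group means together at over 0.1. The fit was tested on simulated data.

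The 7 genes and the 14 other lists were chosen with earlier results of these data known. By rule the text names all 7, up to 3 risen and 3 fallen genes of each other list per comparison, fixed genes (Egr2, Erbb3, Ngfr, Jun, Gap43, Nefl and Adipoq, others being not reported here) and the 8 genes most like the mean of the 7. Alternatives were a repeated quantile normalization, median centring, a dim filter, a trended variance, all probe sets of a gene, only the groups compared, the block and each rat left out. The blocked fits without single rats or without the 2 arrays that stood apart, and the mean without Sox10 and Mag, were chosen after seeing the data.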

Additional observations from a re-analysis of the deposited data

Results flagged for a closer look

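Of 44 groups of 4 or 5 arrays, 7 held 1 array far from the rest of its group by Dixon's criterion, where chance gives about 1 in 20. The main Mbp probe set read 7.26 in the right muscle of sham rat 11, with the nearest of the group at 9.87. The Mbp probe set 1383479_at read 4.75 in the right muscle of SNX rat 49, with the nearest at 2.91. Prx read 6.99 in the right muscle of sham rat 13, with the nearest at 6.11, and Mag read 2.84 on the same array, with the nearest at 2.71. The main Cnp probe set read 8.28 in the left muscle of sham rat 13, with the nearest at 7.06. In the left muscle of sham rat 11 the second Cnp probe set read 2.60, with the nearest at 2.45, and Sox10 read 2.14, with the nearest at 2.09. The values of Mag, Sox10 and the second Cnp probe set lie below the array median. In the right muscle of SNX rat 49 the macrophage mean was 8.18, and its part in the value of 1383479_at was not tested.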

How the results depend on the processing

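The mean of the 7 genes kept its direction in all 7 comparisons under every alternative run, but its size rested on single rats. With all arrays kept, the block, the trended variance and fitting only the groups compared cannot change a difference of group means. Leaving out a sham rat cannot move SNX right against left (0.97), nor an SNX rat sham right against left. Direction was tested only by alternatives that change values or probe sets, or that leave out arrays of the groups compared. For sham right against left (0.29) the mean ran from 0.01 without sham rat 17 to 0.72 without sham rat 11, at 0.02 without sham rat 15. For the difference of the changes (0.68) it fell to 0.25 without sham rat 11, and for SNX against sham right (-0.56) it was -0.35 without SNX rat 49 and -0.37 without sham rat 13. The count of members past the threshold stayed at 0 except for 1 over 9 rats in the blocked fit without sham rat 11 (0 to 1 over the blocked fits without 1 rat) and 1 for SNX against sham averaged over limbs with dim probe sets left out. The replicate block changed no other call among the 7 genes. For the other named genes, in the comparisons where they passed with or without the block, 624 alternative values stayed on the same side of the threshold, 133 passed where the unblocked fit did not, and 60 no longer passed.

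Among single genes, none of them past the threshold, these values changed sign. Without 1 rat, blocked or not, Mbp ran from -0.26 to 2.38 for sham right against left (-0.26 without rat 17) and from -0.10 to 2.53 for the difference of the changes (-0.10 without sham rat 11), and S100b from -1.01 to 0.66 for sham right against left (0.66 without rat 11). Sox10 ran from -0.012 to 0.014 for SNX right against left and from -0.013 to 0.00069 over 9 rats, Mag from -0.018 to 0.015 for sham right against left and from -0.017 to 0.053 for the averaged comparison. For SNX against sham right, Prx ran from -0.29 to 0.14, at 0.020, 0.12 and 0.14 when SNX rat 18, SNX rat 49 or sham rat 13 was left out. Cnp ran from -0.19 to 0.11 for the difference of the changes, with 0.0041, 0.11, 0.062 and 0.11 without SNX rats 18 and 12 and sham rats 17 and 11. Without the 2 arrays that stood apart, Prx was 0.043 for SNX against sham right, or 0.126 with the block, Mbp 0.157 with the block, and Mag 0.011 for sham right against left, or 0.0060 with the block. Normalized once more, Mag was 0.016 for sham right against left and -0.0051 averaged, and with arrays centred on medians Sox10 was -0.015 for SNX right against left. The cause was not tested.

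Counts of probe sets past the threshold moved more. For SNX right against left (14) they ran from 0 to 99 with all rats and from 0 to 147 without 1 rat. For sham right against left (46) they were 559 with the block, 972 with the block and without the 2 arrays, and ran from 0 to 1567 without 1 rat. Over 9 rats (791) they were 2808 with the block and 1842 without dim probe sets, and ran from 153 to 3305 without 1 rat. For SNX left against sham left (2) they ran from 0 to 12, for SNX right against sham right (0) from 0 to 10, averaged (6) from 0 to 169, and for the difference of the changes (0) from 0 to 3. Mag, Sox10 and the second Cnp probe set lay below the array median, so nothing is read from their differences.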

Other observations

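Some genes of axons and nerve terminals were high on single arrays. Snap25, a protein of synaptic vesicle release, read 8.28 in the left and 5.38 in the right muscle of SNX rat 37, 3.11 in the left muscle of SNX rat 49 and 2.28 to 2.39 on the other 15 arrays. Nefm, the medium neurofilament, read 3.33 in the left muscle of SNX rat 37 and at most 2.24 elsewhere, and Stmn2 and Stmn3, regulators of neuronal microtubules, were highest there too, at 4.77 and 4.57. On that array the mean of the 7 Schwann cell and myelin genes was 5.26, among the lowest of the series. Sncg, a synuclein of neurons and fat cells, read 6.19 to 9.73 and correlated with that mean at 0.40 within groups over 18 arrays. These genes were chosen after their values were seen.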
